A study of Mus musculus with 10 samples.

Results

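Transcripts of inner retinal neurons and of synapses were followed in RNA of microglia sorted from mouse retina, 8 weeks and 4 weeks after streptozotocin (STZ) and in littermate controls. The set holds 35 genes, found by symbol among the 55487 genes of the deposited table of read counts. It is made of 5 synaptic genes, 8 genes of bipolar cells, 9 of amacrine cells, 8 of ganglion cells and 5 neuronal structural or signalling genes. All 35 were among the 18957 genes that passed the filter on low counts and were tested.

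The groups were 8wk STZ (4 mice, 8 weeks after STZ), 4wk STZ (3 mice, 4 weeks after STZ) and Control (3 littermates). STZ poisons pancreatic beta cells, the source of insulin, and so makes mice diabetic. Every mouse, controls included, had the Cx3cr1GFP/+ genotype, in which green fluorescent protein (GFP) takes the place of 1 copy of the fractalkine receptor gene and marks microglia along with other myeloid cells. Mice were perfused, the retinas of an animal were pooled and dissociated with papain, and live GFP-positive cells were collected by flow cytometry. Each library thus stands for 1 animal, and the p-values below weigh group differences against the spread between libraries. With 1 library per animal, differences between animals and between library preparations cannot be told apart in that spread. Strain, age, sex, STZ dose, blood glucose and any library batch were not given in the sources used here, so age and batch cannot be told apart from the groups.

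The retina passes signals from photoreceptors through bipolar cells to ganglion cells, whose axons form the optic nerve, while amacrine and horizontal cells modulate this path sideways. Neurons release transmitter when vesicle and plasma membrane SNARE proteins join under the control of a calcium sensor. Photoreceptor terminals use much of the same release machinery as inner retinal neurons, so the synaptic genes are not restricted to the inner retina. Microglia have processes in both synaptic layers of the retina and are known to contact and engulf neuronal material.

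Levels are given as CPM, the read count of a gene relative to the library total, after TMM scaling, which adjusts the totals for differences in composition. The labelled cell type was checked against 10 microglial marker genes, which summed to 28181 to 30859 CPM in 8wk STZ libraries, 31862 to 35674 CPM in 4wk STZ libraries and 37169 to 41031 CPM in Control libraries. The 35 neuronal genes together reached 206.2 ± 29.8 CPM in 8wk STZ (SD, n = 4), 384.4 ± 34.9 CPM in 4wk STZ (n = 3) and 442.0 ± 26.0 CPM in Control (n = 3). In these bulk samples, fewer cells of a type and less RNA per cell cannot be told apart, and the data do not show in which cells the neuronal transcripts were made. Library totals ran from 33266838 to 62903489 reads. On the first principal components of all tested genes, which held 16.8% and 14.3% of the variance, Control 3 (-115.6 and 74.5) and 4wk STZ 3 (-43.6 and -128.4) lay apart from the other libraries.

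Per kilobase of exon, 2 synaptic genes and an axonal gene stood highest. Vamp2, the vesicle SNARE synaptobrevin 2, led with 13.1 ± 1.42 RPKM (CPM per kilobase of exon) in 8wk STZ, 15.8 ± 4.62 RPKM in 4wk STZ and 20.2 ± 0.407 RPKM in Control. Snap25, a SNARE protein of the plasma membrane, followed at 6.82 ± 1.09, 13.0 ± 1.03 and 15.9 ± 0.395 RPKM in 8wk STZ, 4wk STZ and Control. Nefl, the light neurofilament subunit of axons, came next at 4.21 ± 1.84, 10.1 ± 1.65 and 11.1 ± 2.74 RPKM in the same groups. These genes kept ranks 1, 2 and 3 of 35 in both 8wk STZ and Control. The lowest level in Control was that of Gad2, an enzyme that makes the inhibitory transmitter GABA, at 0.0519 ± 0.0683 RPKM in 8wk STZ, 0.0282 ± 0.0314 RPKM in 4wk STZ and 0.0265 ± 0.0118 RPKM in Control.

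RefSeq promoters (GRCm38.p6) were at hand for 25 of the 35 genes. They were searched over the 250 bases before the first listed start site of each gene. The word TAATCC or its reverse complement GGATTA, a core recognised by the homeodomain factors OTX2 and CRX of bipolar cells and photoreceptors, occurred in 5 of them (20%), against 6.38% of 27025 promoters of the same length. The 5 genes are shown because they carry this word, and they belong to the bipolar, amacrine and synaptic classes. Cabp5 is a calcium-binding protein of bipolar cells, and Trpm1 is the transduction channel of ON bipolar cells. Isl1 is a transcription factor of ON bipolar and other inner retinal neurons. Gad1 is a GABA-synthesising enzyme, and Syp is the vesicle protein synaptophysin. Capitals mark the word, the bases run 5′ to 3′ on the strand of the gene, and bases covered by an annotated exon of the gene were searched but are not printed, so some stretches are shorter than 250 bases.
Cabp5 (chr7:13397905-13398131, plus strand): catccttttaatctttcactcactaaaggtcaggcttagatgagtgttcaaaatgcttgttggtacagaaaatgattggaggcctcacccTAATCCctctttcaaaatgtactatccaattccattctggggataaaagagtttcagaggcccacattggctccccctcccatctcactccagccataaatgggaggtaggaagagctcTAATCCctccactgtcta
Trpm1 (chr7:64153585-64153834, plus strand): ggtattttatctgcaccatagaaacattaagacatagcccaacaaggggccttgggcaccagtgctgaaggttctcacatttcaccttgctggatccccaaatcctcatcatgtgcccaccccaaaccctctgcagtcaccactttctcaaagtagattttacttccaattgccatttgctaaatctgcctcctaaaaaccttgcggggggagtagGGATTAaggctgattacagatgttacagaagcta
Isl1 (chr13:116309690-116309938, minus strand): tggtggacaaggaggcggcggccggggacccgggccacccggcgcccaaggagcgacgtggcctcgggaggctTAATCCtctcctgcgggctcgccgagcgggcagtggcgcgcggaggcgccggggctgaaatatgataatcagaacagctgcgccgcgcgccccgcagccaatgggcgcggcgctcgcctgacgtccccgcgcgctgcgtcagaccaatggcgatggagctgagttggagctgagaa
Gad1 (chr2:70561879-70562041, plus strand): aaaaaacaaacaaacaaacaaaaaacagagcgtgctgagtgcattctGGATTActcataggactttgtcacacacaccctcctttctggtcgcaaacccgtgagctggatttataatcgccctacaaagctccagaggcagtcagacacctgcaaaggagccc
Syp (chrX:7638330-7638470, plus strand): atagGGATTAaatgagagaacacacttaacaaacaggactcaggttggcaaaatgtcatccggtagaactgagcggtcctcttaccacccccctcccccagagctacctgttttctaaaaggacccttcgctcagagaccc
In the printed stretches Cabp5 carries the word at 2 places and the others at 1. The Gad1 stretch lies inside the annotated gene (chr2:70553072-70602014, plus strand), before an internal start site. The words CAGCACC (or GGTGCTG) and GGACAGC (or GCTGTCC), the left and right parts of the site of the neuronal repressor REST, were each found in 1 of the 25 promoters (4%), in Tubb3 and in Gad2, against 5.7% and 5.29% of all promoters. Such matches describe letters in a window and do not show that a factor binds there. Snap25, Nefl and Dpysl4 are named only.

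At 8 weeks after STZ, 9 of the 35 genes had fallen relative to Control and none had risen. A call is an adjusted p below 0.05 in edgeR's quasi-likelihood test with Benjamini-Hochberg adjustment over all tested genes, of which 2.37% were called, 1.40% as fallen and 0.971% as risen. The fallen genes were Snap25, Syt1, Syp and Gnao1 of the synaptic class, Nefl of the ganglion class, and Tubb4a, Cadm2, Mapk8ip2 and Dpysl4 of the structural class. At an unadjusted p below 0.05 stood 18 of the 35 and 2970 of the 18957 tested genes. The log2 fold change was below 0 for 30 of the 35, against 50.6% of all tested genes, and its median was -1.22, against -0.01 over all tested genes. In 16 of the 35 every 8wk STZ library lay below every Control library, which held for 7.99% of all tested genes. No member had all 8wk STZ libraries above Control, against 8.91% of all tested genes. The 35 genes were chosen with earlier results of these data known, among them large falls of Gnao1, Tubb4a and Mapk8ip2 at 8 weeks. Counts, shares and medians of the 35, here and below, thus describe the set and do not test it.

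The count of 9 moved with the libraries used. It was 4 without Control 1, 3 without Control 3, 4 without 8wk STZ 3, 4 without 8wk STZ 4, and 2 (Snap25 and Gnao1) without Control 3 and 4wk STZ 3 together. Each of these calls was a fall. Calls over all genes tested also dropped, from 449 to 255, 238, 206, 213 and 275 in the same fits, in the same order. Snap25, Syt1 and Gnao1 were called in each of the 10 fits that left out 1 library.

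**Figure D1:**
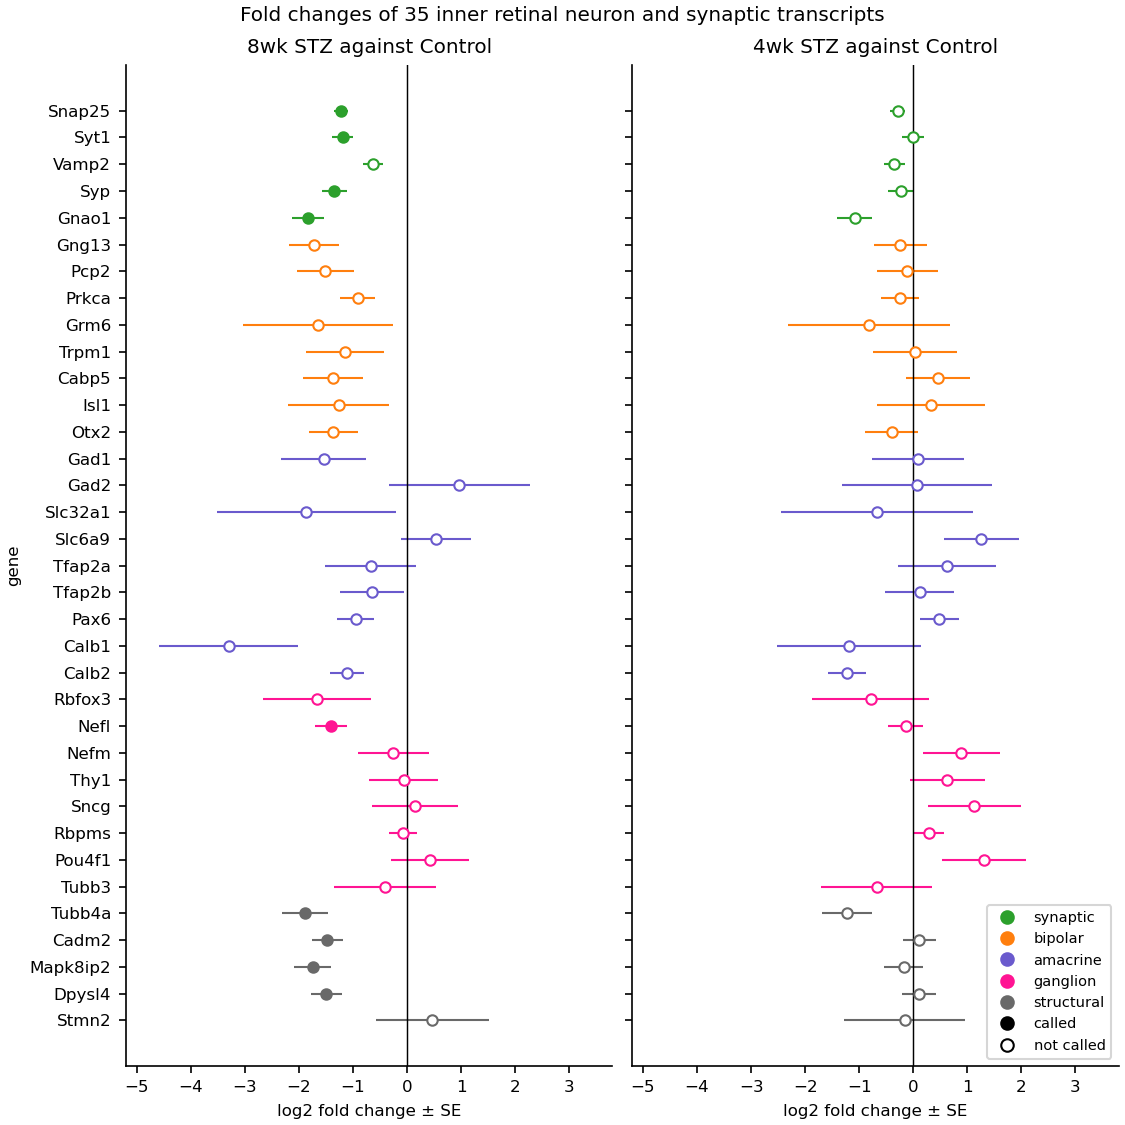
Log2 fold changes (x axis) of the 35 genes (y axis, grouped by class in colour) for 8wk STZ against Control on the left and 4wk STZ against Control on the right, with standard errors as bars. Filled points mark the 9 genes called at 8 weeks, all below 0, and no point is filled at 4 weeks; both panels share the Control libraries.

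Of the 5 synaptic genes 4 had fallen at 8 weeks, with a median log2 fold change of -1.22 for the class. Snap25 (chr2:136713453-136782428, plus strand, GRCm38) stood at 49.8, 55.1, 40.2 and 40.3 CPM in 8wk STZ 1 to 4, at 89.6, 95.0 and 81.0 CPM in 4wk STZ 1 to 3, and at 110.8, 105.4 and 108.2 CPM in Control 1 to 3. The 3 groups did not overlap, with 8wk STZ lowest and Control highest. Snap25 fell at 8 weeks with a log2 fold change of -1.22 (SE 0.127, adjusted p = 0.00150) and in 8wk STZ against 4wk STZ with one of -0.93 (SE 0.127, adjusted p = 0.0166), whereas 4wk STZ against Control gave -0.29 (SE 0.137, adjusted p = 0.530). Against 4wk STZ the call was lost without 4wk STZ 2, 4wk STZ 3 or 8wk STZ 4 (adjusted p up to 0.0544).

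Syt1, the calcium sensor synaptotagmin 1 that triggers fast release, had 16.5, 15.5, 15.9 and 12.8 CPM in 8wk STZ, 45.0, 25.6 and 32.1 CPM in 4wk STZ, and 30.8, 35.7 and 37.2 CPM in Control. All 8wk STZ libraries lay below the other 6, while 4wk STZ spread over and around Control. Its log2 fold change was -1.19 against Control (SE 0.193, adjusted p = 0.0119) and -1.18 against 4wk STZ (SE 0.193, adjusted p = 0.0282). Against 4wk STZ, Syt1 was called in 4 of 10 fits with 1 library left out, and not without 4wk STZ 1, 4wk STZ 3 or any 1 of the 8wk STZ libraries (adjusted p up to 0.0937).

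Syp (chrX:7638471-7653256, plus strand), whose promoter is printed above, had 12.5, 12.7, 9.91 and 6.98 CPM in 8wk STZ, 24.3, 20.0 and 24.4 CPM in 4wk STZ, and 24.7, 23.5 and 31.8 CPM in Control. Every 8wk STZ value was below every value of the other groups, which overlapped with each other. Syp fell by 1.34 on the log2 scale against Control (SE 0.224, adjusted p = 0.0135) and by 1.12 against 4wk STZ (SE 0.224, adjusted p = 0.0480). The first call was lost without Control 3 (adjusted p = 0.0508), and the second in each of the 10 fits that left out 1 library (adjusted p up to 0.151). Of the exonic length of Syp, 16.8% overlaps Gm14703 on the opposite strand, which had a log2 fold change of 3.91 at 8 weeks (adjusted p = 0.164).

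Gnao1, a G protein alpha subunit abundant in neurons that couples the glutamate receptor of ON bipolar cells to their channel, had 5.60, 3.25, 2.55 and 3.14 CPM in 8wk STZ, 7.77, 5.51 and 4.98 CPM in 4wk STZ, and 13.4, 12.2 and 13.0 CPM in Control. Both STZ groups lay wholly below Control, and 8wk STZ 1 reached into the range of 4wk STZ. Gnao1 fell at 8 weeks with a log2 fold change of -1.83 (SE 0.302, adjusted p = 0.0131). At 4 weeks the value was -1.08 (SE 0.325, adjusted p = 0.329).

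Vamp2 had 44.2, 56.7, 47.2 and 51.3 CPM in 8wk STZ, 71.0, 40.0 and 69.9 CPM in 4wk STZ, and 78.5, 75.4 and 77.3 CPM in Control. All STZ libraries were below all Control libraries, with 4wk STZ 2 the lowest of the 10. The log2 fold change of Vamp2 at 8 weeks, -0.63, did not pass (SE 0.181, adjusted p = 0.106). Of the 10 fits that left out 1 library it passed in 1, without 4wk STZ 2 (adjusted p = 0.0226). It also passed with only the 2 groups in the fit (adjusted p = 0.0298). DESeq2 (adjusted p = 0.0162) and edgeR's likelihood ratio test (0.0283) called it as well, and limma-voom did not. The 5 synaptic genes summed to 125.5 ± 13.4 CPM in 8wk STZ, 212.0 ± 25.8 CPM in 4wk STZ and 259.3 ± 7.66 in Control. Their coefficients of variation were low, with a median of 16.0% in 8wk STZ, 24.3% in 4wk STZ and 4.62% in Control.

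**Figure D2:**
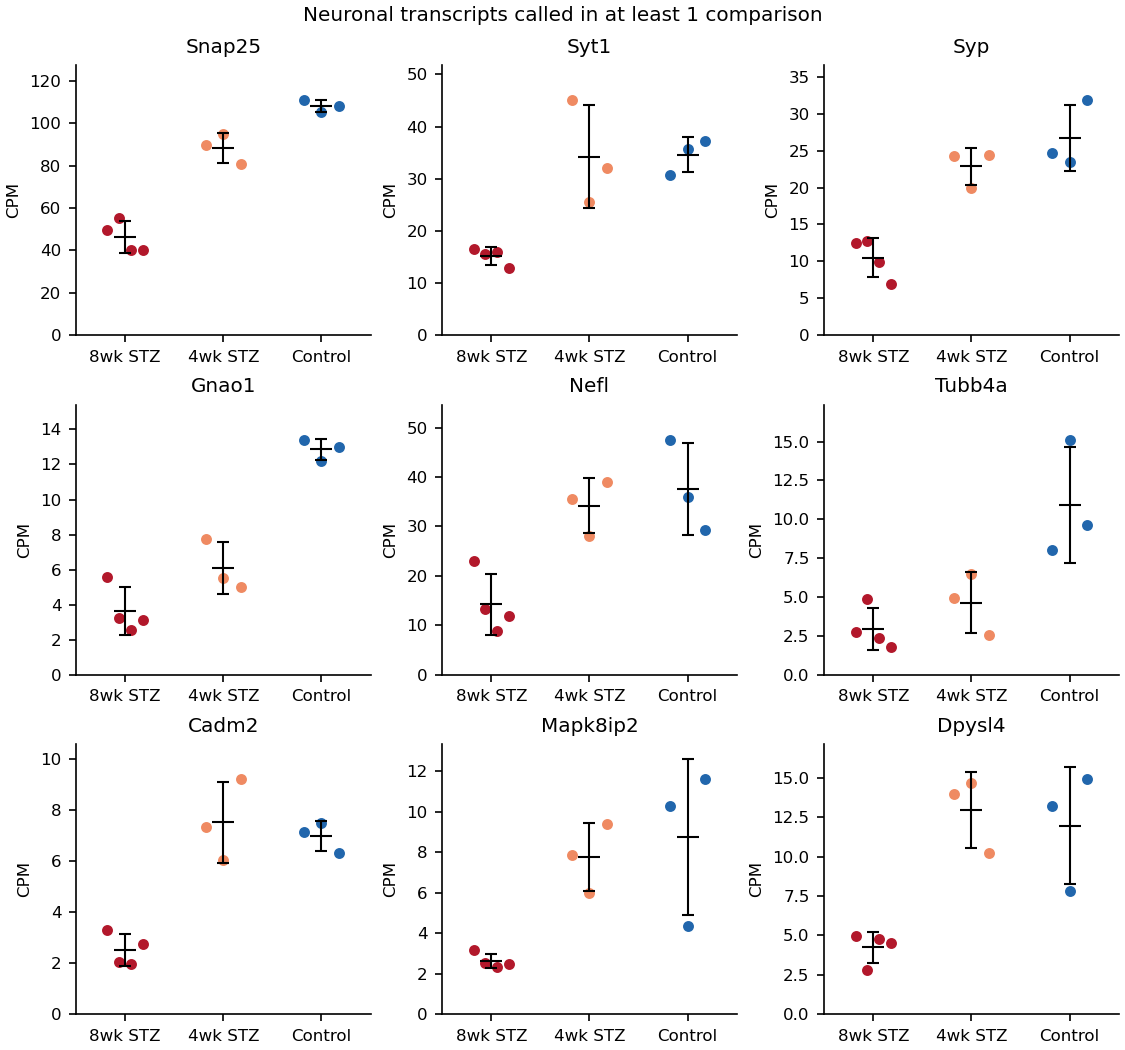
CPM (y axis, from 0) of the 9 genes called in at least 1 comparison, by group on the x axis. Each point is 1 library, the horizontal line is the group mean and the bars are ± 1 SD; in each of the 9 panels all 4 points of 8wk STZ lie below all 3 points of Control.

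Of the 5 structural genes 4 had fallen at 8 weeks, and the median log2 fold change of the class was -1.49. Falls of Tubb4a and Mapk8ip2 in these data were known when the genes were chosen, so this count is no test of the class. Cadm2, a synaptic cell adhesion molecule of the immunoglobulin superfamily, had 3.30, 2.06, 1.97 and 2.75 CPM in 8wk STZ, 7.35, 6.03 and 9.21 CPM in 4wk STZ, and 7.14, 7.49 and 6.34 CPM in Control. The 8wk STZ libraries were below the other 6, which were intermixed. Cadm2 fell against Control (log2 fold change -1.47, SE 0.285, adjusted p = 0.0241) and against 4wk STZ (-1.58, SE 0.285, adjusted p = 0.0350).

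Dpysl4, a collapsin response mediator protein of growing axons and neurites, showed the same order. It had 4.95, 2.81, 4.76 and 4.50 CPM in 8wk STZ, 14.0, 14.7 and 10.2 CPM in 4wk STZ, and 13.2, 7.83 and 14.9 CPM in Control. Again each 8wk STZ value was below all others, with Control 2 the lowest of the remaining libraries. The log2 fold change of Dpysl4 was -1.49 against Control (SE 0.290, adjusted p = 0.0252) and -1.61 against 4wk STZ (SE 0.291, adjusted p = 0.0350).

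Mapk8ip2, a scaffold of JNK signalling found in neurons, had 3.16, 2.55, 2.31 and 2.50 CPM in 8wk STZ, 7.87, 6.01 and 9.39 CPM in 4wk STZ, and 10.3, 4.37 and 11.6 CPM in Control. The 8wk STZ values lay close together and below the rest, and Control 2 was lower than the other Control libraries. It fell at 8 weeks (log2 fold change -1.74, SE 0.344, adjusted p = 0.0274), and its value of -1.56 against 4wk STZ did not pass (SE 0.344, adjusted p = 0.0685, and 0.0388 without Control 2). Tubb4a, a beta-tubulin of the nervous system, had 2.74, 4.87, 2.39 and 1.81 CPM in 8wk STZ, 4.94, 6.46 and 2.52 CPM in 4wk STZ, and 8.02, 15.1 and 9.65 CPM in Control. Both STZ groups were wholly below Control, where Control 2 was highest, and overlapped with each other. Tubb4a fell at 8 weeks (log2 fold change -1.89, SE 0.423, adjusted p = 0.0458) and gave -1.23 at 4 weeks (SE 0.457, adjusted p = 0.433).

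The fifth structural gene, Stmn2, a regulator of axonal microtubules, had 0.863 ± 0.329 CPM in 8wk STZ, 0.560 ± 0.662 CPM in 4wk STZ and 0.621 ± 0.540 in Control and was not called in any comparison. Against Control at 8 weeks, Cadm2, Dpysl4 and Mapk8ip2 were each called in 4 of the 10 fits that left out 1 library and Tubb4a in 2. Cadm2 was lost without Control 1, 2 or 3 or 8wk STZ 2, 3 or 4 (adjusted p up to 0.0730), Dpysl4 and Mapk8ip2 without Control 1 or 3 or any 1 of the 8wk STZ libraries (up to 0.0902 and 0.0995), and Tubb4a without any 1 Control library, 4wk STZ 1 or 2, or 8wk STZ 1, 3 or 4 (up to 0.142). Against 4wk STZ, Dpysl4 kept its call in 2 of 10 such fits, without Control 2 or without Control 3, and Cadm2 in none (adjusted p up to 0.102 and 0.128).

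The 8 bipolar genes all had log2 fold changes below 0 at 8 weeks, from -1.72 to -0.91 with a median of -1.36, and none was called by edgeR's quasi-likelihood test. At an unadjusted p below 0.05 stood 5 of the 8, against 2970 of the 18957 tested genes. In 2, Gng13 and Pcp2, every 8wk STZ library lay below every Control library, against 7.99% of all tested genes. Otx2, the homeodomain factor that specifies bipolar cells and photoreceptors, had 4.17, 9.46, 2.98 and 3.22 CPM in 8wk STZ, 15.6, 6.84 and 6.53 CPM in 4wk STZ, and 8.69, 13.5 and 15.9 CPM in Control. Only 8wk STZ 2 reached into the Control range, and the log2 fold change of -1.36 did not pass (SE 0.460, adjusted p = 0.169). Prkca, the protein kinase C alpha that marks rod bipolar cells, had 8.08, 8.58, 11.6 and 4.72 CPM in 8wk STZ, 14.1, 9.99 and 15.1 CPM in 4wk STZ, and 21.3, 10.3 and 14.9 CPM in Control. The 8wk STZ and Control ranges met at 8wk STZ 3 and Control 2, and the value of -0.91 did not pass (SE 0.327, adjusted p = 0.198).

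Gng13, the gamma subunit paired with Gnao1 in ON bipolar cells, came nearest to a call in this class, with a log2 fold change at 8 weeks of -1.72 (SE 0.463, adjusted p = 0.0862). Its level was 1.42 ± 0.857 CPM in 8wk STZ, 3.98 ± 0.657 CPM in 4wk STZ and 4.69 ± 0.0941 in Control. It passed without 8wk STZ 2 (adjusted p = 0.0448), and also by DESeq2 (adjusted p = 0.00845), limma-voom (0.0298) and the likelihood ratio test of edgeR (0.0187). Of its exonic length 51.6% overlaps a gene on the opposite strand. DESeq2 also called Otx2 at 8 weeks (adjusted p = 0.0381), with 1451 of the 18957 genes called by this tool. Grm6, the glutamate receptor of ON bipolar cells, ranged from 0 to 2.71 CPM in 8wk STZ, from 0.436 to 4.77 CPM in 4wk STZ and from 0.630 to 8.43 CPM in Control, and its lowest library, 8wk STZ 4, had no read, which allows up to 0.0504 CPM (3 reads, counting error only). Its coefficient of variation was 112% in 8wk STZ, 117.8% in 4wk STZ and 118.1% in Control.

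For each gene the libraries with its highest and its lowest value in each group were counted. Within 8wk STZ, 7 of the 8 bipolar genes were highest in library 2 and 5 were lowest in library 4, where Isl1 stood at 0.0672 CPM and Trpm1 at 0.386 CPM. Within 4wk STZ, 5 were highest in library 2 and 5 lowest in library 3. Within Control, 6 were highest in library 3 and 5 lowest in library 2. In other classes, 6 of 8 ganglion genes were highest in Control 2, 5 of 8 were the lowest of their group in 8wk STZ 2, and 4 of 5 synaptic genes were the lowest of theirs in Control 2. These counts were not tested. The sum of the 8 genes was 31.6, 43.5, 22.6 and 13.2 CPM in 8wk STZ, 68.8, 68.6 and 49.0 CPM in 4wk STZ, and 67.6, 45.7 and 84.6 CPM in Control. The 8wk STZ sums were below all others, with 8wk STZ 2 close to Control 2.

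**Figure D3:**
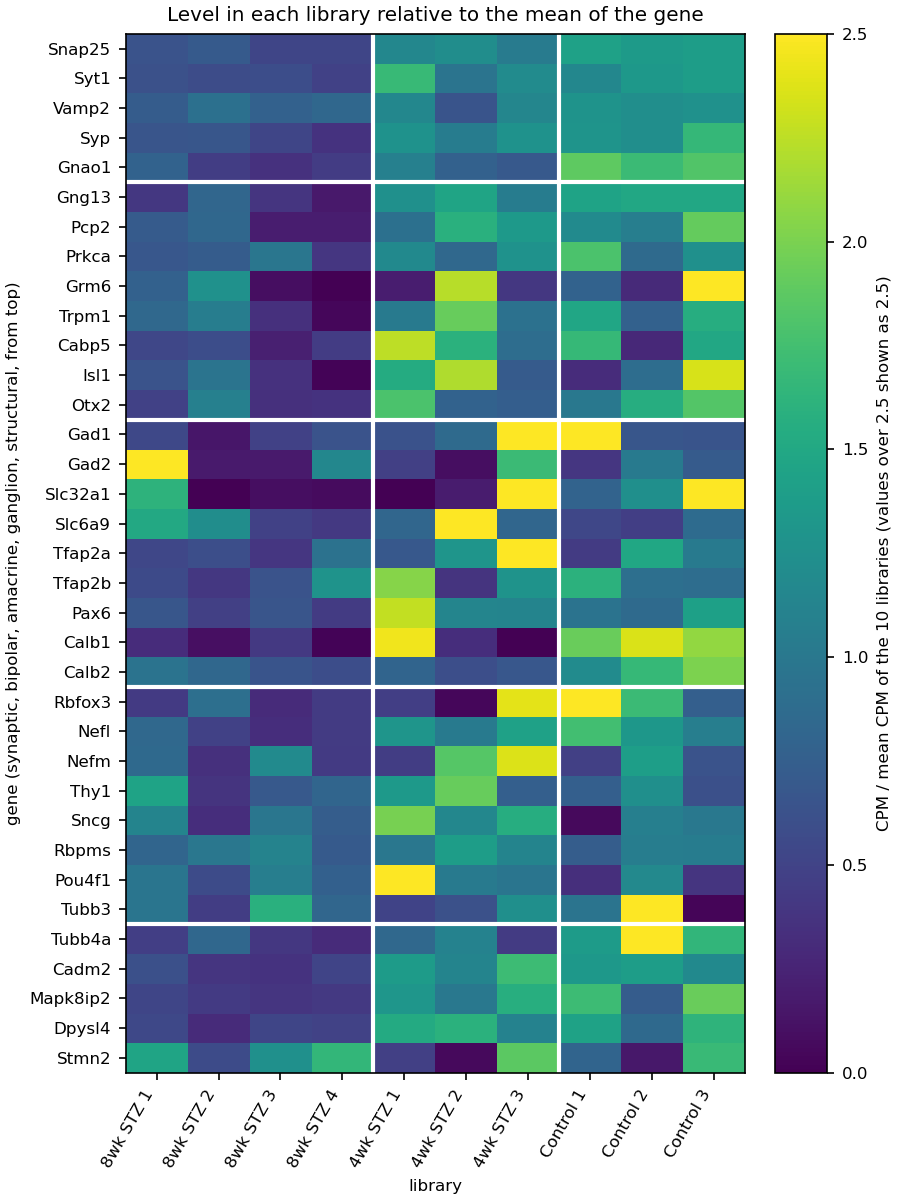
CPM of each of the 35 genes (rows, from synaptic at the top to structural at the bottom) in each of the 10 libraries (columns), divided by the mean of the gene over the 10 libraries; values over 2.5 are drawn as 2.5. All 5 synaptic rows and 4 of 5 structural rows (not Stmn2) are below the mean of the gene in all 4 of the 8wk STZ columns. Among the bipolar rows, 8wk STZ 2 is brightest of its group for 7 of 8 genes.

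None of the 9 amacrine genes was called by edgeR's quasi-likelihood test, and their median log2 fold change at 8 weeks was -0.95, over a range of -3.30 to 0.97. Pax6, a homeodomain factor of amacrine, horizontal and ganglion cells, had 4.19, 2.97, 4.10 and 2.70 CPM in 8wk STZ, 14.2, 7.09 and 7.03 CPM in 4wk STZ, and 5.97, 5.38 and 8.91 CPM in Control. The 8wk STZ libraries were below all others, and 4wk STZ 1 was highest. The differences of -0.95 against Control (SE 0.337, adjusted p = 0.189) and -1.44 against 4wk STZ (SE 0.337, adjusted p = 0.0778) did not pass. Calb2, the calcium-binding protein calretinin of amacrine and ganglion cells, had 3.73, 3.29, 2.53 and 2.32 CPM in 8wk STZ, 3.14, 2.36 and 2.67 CPM in 4wk STZ, and 4.72, 6.57 and 7.86 CPM in Control. Both STZ groups lay below Control and overlapped with each other. Neither -1.11 at 8 weeks (SE 0.322, adjusted p = 0.108) nor -1.23 at 4 weeks (SE 0.352, adjusted p = 0.316) passed. Other tools called some of these genes as fallen. DESeq2 called Calb1 and Calb2 at 8 weeks against Control (adjusted p = 0.0440 and 0.0178). Against 4wk STZ, Pax6 was called by DESeq2 (adjusted p = 0.00238) and by edgeR's likelihood ratio test (adjusted p = 0.00762), which called 1004 and 759 of the 18957 genes.

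Calb1, the calcium-binding protein calbindin of horizontal and amacrine cells, had the lowest log2 fold change of the 35 at 8 weeks, -3.30, with a standard error of 1.29 (adjusted p = 0.239). Its level was 0.439 ± 0.377 CPM in 8wk STZ, 1.89 ± 2.72 CPM in 4wk STZ and 4.34 ± 0.443 in Control, and 4wk STZ 3 had no read, which allows up to 0.0933 CPM. All 8wk STZ libraries lay below Control, while 4wk STZ ran from 0 to 5.00 CPM. The genes of GABA synthesis and vesicle loading, Gad1, Gad2 and the vesicular transporter Slc32a1, averaged 0.488, 0.305 and 0.0964 CPM in 8wk STZ, 1.52, 0.166 and 0.232 CPM in 4wk STZ, and 1.43, 0.156 and 0.362 CPM in Control. At these levels single libraries decided the means: Slc32a1 had no read in 8wk STZ 2 or 4wk STZ 1, which allows up to 0.0601 and 0.0623 CPM. The other 3 genes, the glycine transporter Slc6a9 and the transcription factors Tfap2a and Tfap2b, had log2 fold changes at 8 weeks of 0.54, -0.67 and -0.65 (adjusted p = 0.797, 0.809 and 0.706).

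The ganglion genes gave 1 call of 8 and a median log2 fold change at 8 weeks of -0.16, which lay between -0.46 (without Control 1) and 0.31 (without Control 2) with 1 library left out. Nefl had 23.1, 13.2, 8.85 and 11.8 CPM in 8wk STZ, 35.5, 28.1 and 39.0 CPM in 4wk STZ, and 47.5, 35.9 and 29.2 CPM in Control. All 8wk STZ libraries were below the other 6, with 8wk STZ 1 nearest to them. Nefl fell against Control with a log2 fold change of -1.40 (SE 0.299, adjusted p = 0.0382), and its value of -1.26 against 4wk STZ did not pass (SE 0.299, adjusted p = 0.0802, and 0.0318 without 8wk STZ 1). The call was held in 2 of 10 fits with 1 library left out, without 4wk STZ 3 or 8wk STZ 1, and was lost in the others (adjusted p up to 0.113). Nefl overlaps Nefm, the medium neurofilament subunit on the opposite strand, over 32.8% of its exonic length. The labels name a SMARTer Ultra Low kit with adapters ligated to double-stranded cDNA, which does not mark strand, so reads of the shared stretch cannot be assigned, and Nefm had a log2 fold change of -0.25 at 8 weeks (adjusted p = 0.926).

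Rbpms, an RNA-binding protein used to mark ganglion cells, had 6.28, 7.60, 8.62 and 5.42 CPM in 8wk STZ, 7.60, 10.7 and 8.65 CPM in 4wk STZ, and 5.69, 8.17 and 8.08 CPM in Control. The 3 groups overlapped throughout, with a log2 fold change of -0.07 at 8 weeks (SE 0.256, adjusted p = 0.954) that became 0.04 when library totals alone set the scale, which put the median of all tested genes at 0.10. The other 6 ganglion genes, the neuronal splicing factor Rbfox3, Nefm, the surface protein Thy1, gamma-synuclein Sncg, the transcription factor Pou4f1 and the beta-tubulin Tubb3, had log2 fold changes at 8 weeks from -1.67 (Rbfox3) to 0.42 (Pou4f1), with adjusted p of 0.491 or more. Single libraries stood apart in this class. Tubb3 had 6.48 CPM in Control 2 and 0.0779 CPM in Control 3, and Rbfox3 had 2.15 CPM in 4wk STZ 3 and 0.0414 CPM in 4wk STZ 2.

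**Figure D4:**
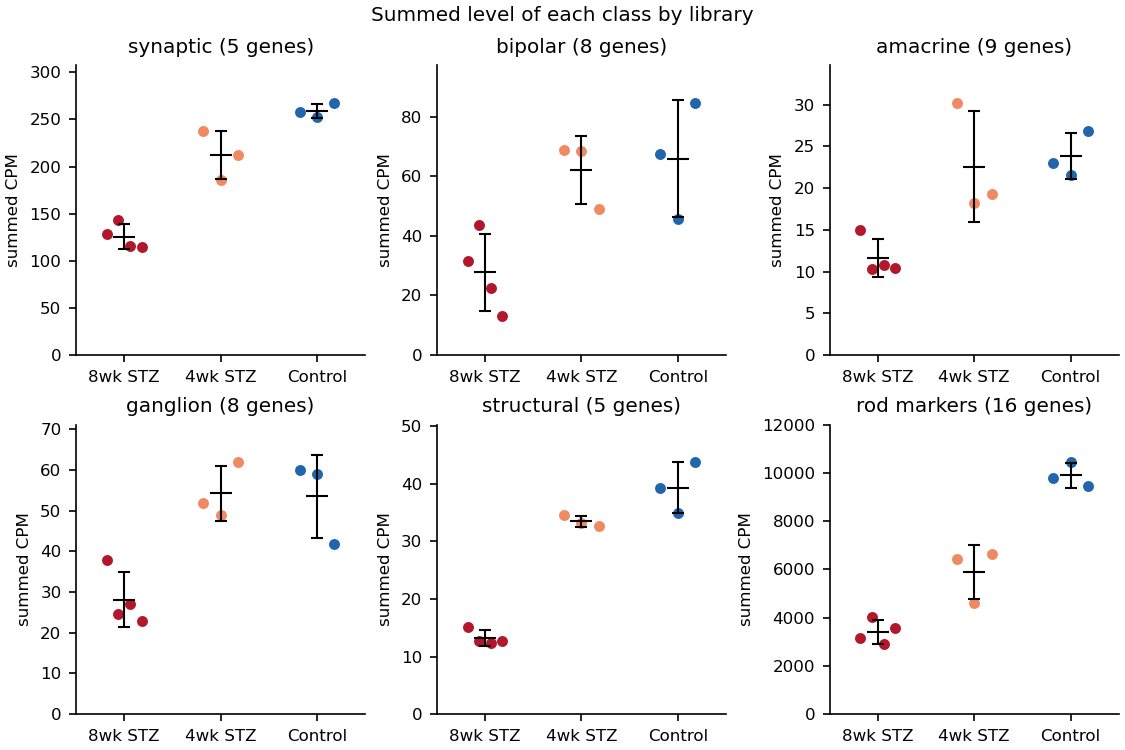
Summed CPM (y axis, from 0, own scale per panel) of the 5 classes and of 16 rod photoreceptor markers, by group on the x axis. Each point is 1 library, with the mean and ± 1 SD; all 4 of the 8wk STZ sums lie below all Control sums in each panel, and the 4wk STZ sums lie below all Control sums in the synaptic, structural and rod panels.

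At 4 weeks none of the 35 genes was called by edgeR's quasi-likelihood test, which called no gene of the 18957 (0%). At an unadjusted p below 0.05 stood 3 members, Gnao1, Tubb4a and Calb2, and 1849 of all tested genes. The likelihood ratio test of edgeR and limma-voom also called no member, and DESeq2 called Calb2 alone (log2 fold change -1.22, adjusted p = 0.0488), with 1.66% of all tested genes called. The median log2 fold change of the 35 was -0.11, against -0.00 over all tested genes, and 19 of the 35 were below 0. In 5 members, Snap25, Vamp2, Gnao1, Calb2 and Tubb4a, every 4wk STZ library lay below every Control library, against 6.25% of all tested genes. In 1, Sncg, every 4wk STZ library lay above (2.22 ± 0.594 CPM in 4wk STZ, 1.01 ± 0.804 CPM in Control), against 6.07% of all tested genes. By class, the median log2 fold change at 4 weeks was -0.29 for synaptic, -0.17 for bipolar, 0.09 for amacrine, 0.46 for ganglion and -0.16 for structural genes. Single libraries moved these medians. With 1 library left out, the synaptic median lay between -0.31 (without Control 2) and -0.13 (without 4wk STZ 2), and the bipolar median between -0.25 (without Control 2 or 4wk STZ 2) and 0.19 (without Control 3). The amacrine median lay between -0.62 (without 4wk STZ 3) and 0.40 (without 4wk STZ 2), the ganglion median between 0.21 (without 4wk STZ 2) and 0.82 (without Control 2), and the structural median between -0.51 (without Control 2) and 0.08 (without Control 3).

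Between the time points, 5 of the 35 had fallen in 8wk STZ relative to 4wk STZ and none had risen, against 0.522% fallen and 0.396% risen of all tested genes (0.918% called). The 5 were Snap25, Syt1, Syp, Cadm2 and Dpysl4, whose values are given above. The log2 fold change was below 0 for 31 of the 35, against 50.0% of all tested genes, with a median of -0.98. In 12 of the 35, every 8wk STZ library lay below every 4wk STZ library, against 6.97% of all tested genes, and in none above, against 8.39%. Median log2 fold changes by class were -0.93 for synaptic, -1.28 for bipolar, -1.19 for amacrine, -0.89 for ganglion and -1.56 for structural genes. The count of 5 was 0 without 4wk STZ 3 or without 8wk STZ 4, 1 without 4wk STZ 1, 4wk STZ 2, 8wk STZ 2 or 8wk STZ 3, 2 without Control 1 or 8wk STZ 1, and 3 without Control 3. Calls over all genes tested also dropped, from 174 to 13, 14, 118, 41, 45, 34, 118, 52 and 107 in the same fits, in the same order.

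Markers of other retinal cells were read beside the neuronal genes. At 8 weeks 16 of 16 rod markers had fallen against Control, with sums of 2887 to 4016 CPM in 8wk STZ, 4597 to 6630 CPM in 4wk STZ and 9453 to 10435 CPM in Control. Of 16 Müller glia and astrocyte markers 6 had fallen at 8 weeks, with sums of 692.2 to 1008 CPM in 8wk STZ, 1163 to 1351 CPM in 4wk STZ and 994.3 to 1499 CPM in Control. Their median log2 fold change at 8 weeks was -1.09, with 15 below 0 and 1 above. Much of these sums was Glul, with means of 533.7, 683.8 and 632.3 CPM in the same groups and a log2 fold change at 8 weeks of -0.24 (adjusted p = 0.325). Of 9 tested cone markers none was called by edgeR's quasi-likelihood test (1 at an unadjusted p below 0.05), and their sums overlapped, at 182.2 to 284.8 CPM in 8wk STZ, 203 to 257.8 CPM in 4wk STZ and 195.7 to 229.1 CPM in Control. Gngt2 alone averaged 182.8, 148.3 and 153.1 CPM in these groups, out of mean sums of 240.5, 233.2 and 208.6 CPM. The cone sums thus mostly follow 1 gene and say little about cone transcripts. The marker at an unadjusted p below 0.05 was Gnb3 (log2 fold change -0.81, adjusted p = 0.301), which is also counted among the further bipolar genes below. Of the 10 microglial markers 4 had fallen at 8 weeks, among them Csf1r, Fcrls and Tmem119, with the sums given above. Of 4 tested oligodendrocyte markers none was called by edgeR's quasi-likelihood test (0 at an unadjusted p below 0.05), with log2 fold changes at 8 weeks of 0.04 to 2.38 and sums of 254.5 to 288.5 CPM in 8wk STZ, 262.7 to 289.4 CPM in 4wk STZ and 233.3 to 269.3 CPM in Control. The part of these cell types in the neuronal result was not tested.

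The sums were also set against rod transcripts, which gave a higher mean in both STZ groups than in Control for the 35 genes together but not for each class. Per 100 CPM of rod markers, the 35 genes had 7.23, 5.84, 6.53 and 4.86 CPM in 8wk STZ, 6.59, 7.72 and 5.66 CPM in 4wk STZ, and 4.58, 3.96 and 4.91 CPM in Control. All STZ values except that of 8wk STZ 4 exceeded all Control values. The synaptic genes had 3.71 ± 0.408 CPM per 100 CPM of rod markers in 8wk STZ, 3.65 ± 0.424 CPM in 4wk STZ and 2.63 ± 0.206 in Control, with no overlap between either STZ group and Control. The bipolar genes had 0.810 ± 0.319 CPM in 8wk STZ, 1.10 ± 0.378 CPM in 4wk STZ and 0.675 ± 0.229 in Control on this scale, and overlapped. The structural genes had 0.395 ± 0.0730 CPM in 8wk STZ, 0.584 ± 0.122 CPM in 4wk STZ and 0.400 ± 0.0639 in Control, so that 8wk STZ and Control were nearly equal. The amacrine genes had 0.349 ± 0.0977 CPM in 8wk STZ, 0.386 ± 0.0895 CPM in 4wk STZ and 0.242 ± 0.0390 in Control. The ganglion genes had 0.849 ± 0.276, 0.935 ± 0.126 and 0.540 ± 0.0878 CPM in the same groups. Ganglion values of both STZ groups also lay above Control, at 8 weeks narrowly (0.615 in 8wk STZ 2, 0.613 in Control 1). For the amacrine and structural genes 4wk STZ lay wholly above Control and 8wk STZ overlapped with it. The mean rod sum in 8wk STZ was 34.5% of that in Control, and in 4wk STZ 59.5%. The mean sum of the 35 genes in 8wk STZ was 46.7% of that in Control, and in 4wk STZ 87.0%. These ratios rest on chosen genes and were not tested.

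**Figure D5:**
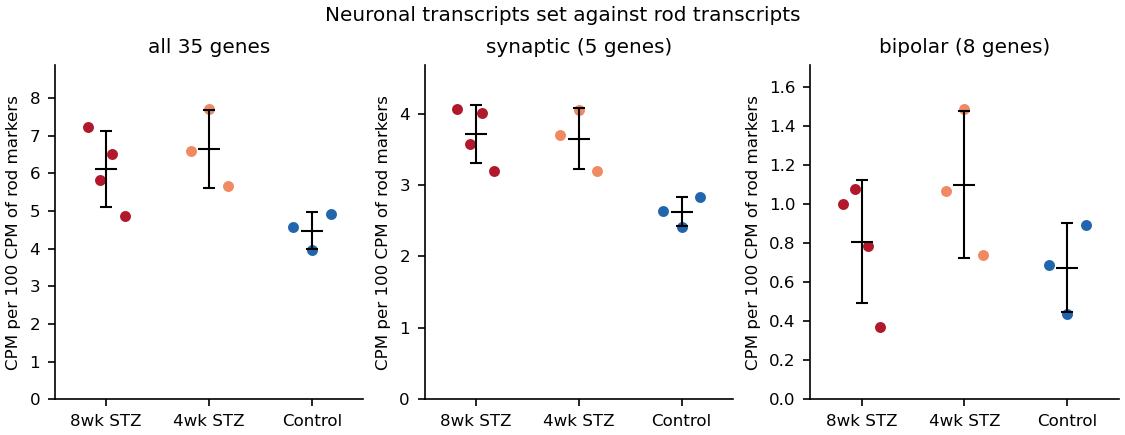
Summed CPM of all 35 genes, the 5 synaptic genes and the 8 bipolar genes per 100 CPM of 16 rod markers (y axis, from 0), by group on the x axis. Each point is 1 library, with the mean and ± 1 SD; the synaptic values of both STZ groups lie above Control, while the bipolar values overlap.

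Further genes of the same pathways, which are no members, were read in the same fit. Of 25 tested further synaptic genes 6 had fallen at 8 weeks and none had risen, against 1.40% and 0.971% of all tested genes. Among them were the vesicular glutamate transporter Slc17a7 (-1.45, 0.00834), the syntaxin Stx3 of ribbon synapses (-1.35, 0.00978), the complexin Cplx4 of ribbon synapses (-1.03, 0.0152), the active zone protein Rims2 (-1.15, 0.0293) and the vesicle protein Sv2b (-1.27, 0.0425). Cplx4 had also fallen against 4wk STZ (-0.93, adjusted p = 0.0405). The median log2 fold change of the 25 at 8 weeks was -0.50, with 20 below 0 and 5 above. At an unadjusted p below 0.05 stood 12 of the 25. Every 8wk STZ library lay below every Control library in 9 genes of the list, against 7.99% of all tested genes. In 2, Vamp1 (0.85, adjusted p = 0.154) and Bsn (0.99, adjusted p = 0.235), every 8wk STZ library lay above, against 8.91%. Syngr1, a vesicle protein and the most abundant of the list, was at 417.2 ± 66.9 CPM in 8wk STZ, 421.2 ± 44.6 CPM in 4wk STZ and 420.5 ± 64.1 in Control. No gene was called among 18 tested further bipolar genes (7 at an unadjusted p below 0.05 at 8 weeks, median log2 fold change -0.85), whose most abundant, Gnb3 and Rgs9bp, gave -0.81 and -0.41 at 8 weeks (adjusted p = 0.301 and 0.622). The same held for 14 tested further amacrine or horizontal genes (1 at an unadjusted p below 0.05, median -0.45), with Prox1 at -0.57 (adjusted p = 0.430). Of 14 tested further ganglion genes 1 had fallen at 8 weeks, the microtubule protein Map1b (-1.28, adjusted p = 0.0228), and the abundant junction protein Jam2 was at 0.02 (adjusted p = 0.982), with a median of 0.04 for the list.

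The authors' deposited table, which lists 30 of the 35 among 14475 genes, gives falls at 8 weeks with an FDR below 0.05 for 13 of them, against 3.70% of its genes, and for none at 4 weeks, against 0.428%. It gives no risen member, against 3.59% of its genes at 8 weeks and 0.373% at 4 weeks. The 13 are the 9 named above with Vamp2, Gng13, Otx2 and Calb1. In the authors' deposited table the FDR for these 4 is 0.0162, 0.0249, 0.0349 and 0.0375.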

How the data were processed

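RNA-seq counts of 10 libraries of GFP-positive retinal cells were used. The authors deposited whole-number read counts for each gene, not normalised. Per the submitters' processing notes the tools were bcl2fastq, STAR, featureCounts of Subread, Salmon, edgeR and limma, and the build was GRCm38; the role of each, the annotation, strandedness and multi-mapping settings were not given in the sources used here. A further deposited table gives the authors' log2 fold changes and mean log2 CPM, a likelihood ratio score, and p-values with FDR, per the file headers. It served only for the values credited to it. The count table also held 1 numeric column that was left unused, which counts annotated transcripts.

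The 287 entries that repeat an identifier were dropped from 55774. Counts were scaled by TMM, filtered with filterByExpr by group and modelled in edgeR (version 4.0.16, under R 4.3.3) with group as the only factor and 7 residual degrees of freedom, by the robust quasi-likelihood F-test with Benjamini-Hochberg adjustment over 18957 genes. The scripts were tested on simulated data with less spread than these data and with changes only in well-covered genes. That checks the code, not how many changes the test finds in these data. RPKM divides CPM by the exon union of GENCODE vM21, and promoters come from RefSeq (GRCm38.p6). Library totals of 33266838 to 62903489 reads make 1 read worth little, so spread between libraries, each of 1 animal, limits precision. Limits for genes without a read cover counting error only (3 reads).

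The genes and lists were chosen with earlier results of these data known, among them that Gnao1, Tubb4a and Mapk8ip2 were among the largest falls at 8 weeks. Values in every library are given for genes called in any comparison and for the 2 most abundant per class; other genes are given by mean, range or count, and of the further lists called genes and the 2 most abundant are named, except some that are not reported here. Alternatives were other scalings, DESeq2 1.42.0, edgeR's likelihood ratio test, limma-voom (limma 3.58.1), no filter, fewer groups, a replicate block and libraries left out.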

Additional observations from a re-analysis of the deposited data

Results flagged for a closer look

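The comparison of the time points differed for 5 genes by edgeR's quasi-likelihood test of 8wk STZ against 4wk STZ. The log2 fold changes were -0.93 for Snap25, -1.18 for Syt1, -1.12 for Syp, -1.58 for Cadm2 and -1.61 for Dpysl4, each lower in all 4 of the 8wk STZ libraries than in all 3 of the 4wk STZ libraries. Slc32a1 in 8wk STZ 1 stood at 0.349 CPM, far from the other 3 libraries of its group, with a gap of 0.943 of the range of the group; 35 such groups were looked at, and chance sets apart about 1 in 20.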

How the results depend on the processing

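Each member called in any of the alternatives tried was a fall. The count at 8 weeks against Control was 9, and became 14 with DESeq2, 2 without Control 3 and 4wk STZ 3 together, and 3 to 9 when 1 library was left out. Calls over all genes tested moved as well, from 449 to 1451, 275, and 206 to 462 in the same settings. Against 4wk STZ the count of members was 5, and became 10 with DESeq2, 9 with edgeR's likelihood ratio test, 2 with only the groups compared in the fit, 0 without Control 3 and 4wk STZ 3, and 0 to 4 when 1 library was left out. All genes tested gave 174 calls there, and 1004, 759, 100, 6, and 13 to 118 in the same settings. The count of 0 at 4 weeks against Control became 1 with DESeq2 and stayed 0 in the other alternatives. DESeq2 called 314 genes there in all, and edgeR's likelihood ratio test 244. Replicate numbers are shared by the groups but do not pair the samples: same-numbered libraries deviated together with correlations of -0.04 to 0.07, and 8 of 18 correlated best with their own number. With the replicate block, 1 member (Snap25) was called at 8 weeks against Control, 0 against 4wk STZ and 0 at 4 weeks. The block left 44, 0 and 0 calls over all genes tested in these comparisons. Over all genes the share of risen among called genes at 8 weeks was 41.0%, and 66.0% with library totals or 30.9% with upper-quartile scaling, while the members called in these fits, 9, 8 and 9, had all fallen. Of the genes recomputed one by one (those given in every library), the log2 fold change of 6 changed sign, each in a comparison in which it was not called: at 4 weeks Syt1 was 0.01 with library totals, 0.00 with upper-quartile scaling, 0.09 without Control 3 and 4wk STZ 3, and between -0.26 and 0.16 with 1 library left out (among these 0.01, 0.04, 0.16 and 0.03); Nefl was 0.07 without Control 1 (range with 1 library left out -0.29 to 0.07). At 4 weeks Cadm2 was -0.13 without Control 3 and 4wk STZ 3 and -0.06 without 4wk STZ 3 (range -0.06 to 0.24), Mapk8ip2 0.08 without Control 3 (range -0.51 to 0.08) and Dpysl4 -0.12 without Control 2 (range -0.12 to 0.30). Rbpms at 8 weeks was 0.04 with library totals, 0.05 with the block, 0.01 without Control 3 and 4wk STZ 3, and 0.02, 0.01 and 0.04 without Control 2, Control 3 or 8wk STZ 4 (range -0.22 to 0.04). The cause of these changes was not tested. Overlapping genes on the other strand limit Gng13 and Pcp2, of whose exonic length 51.6% and 51.5% is shared.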
